A study of Mus musculus with 40 samples.

Results

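The genes described here are 10 genes of fat storage and release: the lipid droplet coat genes Plin1, Plin2, Plin4, Plin5 and Cidec, the lipase genes Pnpla2 and Lipe, and the uptake genes Lpl, Cd36 and Fabp4. They were taken by name from both count tables, which together hold 26132 genes, and all 10 were present in both. Gene expression was measured by RNA-seq in 4 cell populations of the mammary gland of wildtype FVB/N female mice, with no treatment or mutant allele in any group. Adipocytes were the floating fat layer of the collagenase digest. The remaining cells were sorted by FACS into stromal cells other than adipocytes (lin-/EpCAM-/CD49f-, called fibroblasts below), basal cells (lin-/EpCAM med/CD49f high) and luminal cells (lin-/EpCAM high/CD49f med), where lin- means without the blood and endothelial surface proteins CD45, CD31 and Ter119. Each population gave 2 libraries from pubertal mice of postnatal day 34 to 36 (4 mice per pool) and 2 libraries per estrous stage (diestrus, proestrus, estrus or metestrus) from adult mice of 14 to 16 weeks (2 or 3 mice per pool), in all 40 libraries. Adult replicates 1 and 2 of a stage were separate pools, formed as early and late where the histology and cytology told these apart and otherwise by cell number, so p-values measure the spread between pools of mice. By the study's methods, pubertal replicate 1 was of day 34. Replicate 2 was of day 36 for adipocytes and of the day between for the sorted populations, a choice made on RNA quality. Pubertal replicates thus differ in day as well as mice, and replicate 2 of adipocytes came from another pool than replicate 2 of the sorted populations. Puberty and adult libraries were sequenced in separate runs, so age and run cannot be told apart.

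Adipocytes keep triglyceride in a large lipid droplet. Perilipins, encoded by the Plin genes, coat the droplet surface and control the access of lipases, and CIDEC joins droplets into larger ones. Lipoprotein lipase, encoded by Lpl, frees fatty acids from circulating lipoproteins, CD36 takes them up at the cell membrane and FABP4 binds them in the cytoplasm. On demand, ATGL (encoded by Pnpla2) and then hormone-sensitive lipase (encoded by Lipe) release fatty acids from the droplet. In the mammary gland the surrounding fat pad holds most of these cells, while luminal cells make their own droplets when they prepare for milk fat secretion.

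Start-site sequence is shown for 3 of the coat genes, because Plin1 and Cidec were far higher in adipocytes than in any other cell type whereas Plin2 reached a similar level in luminal cells. Each window runs from 250 bases before to 50 bases after an annotated start and comes from RefSeq on GRCm38.p6, which is not the FVB/N genome. Capitals mark matches, on either strand, to TTGCNNAA, a form of the site bound by C/EBP factors, or to CCAAT, a common element near start sites. The Plin1 window is chr7:79732727-79733026, the Plin2 window chr4:86670010-86670309, and the windows of the first and second Cidec start are chr6:113435711-113436010 and chr6:113434715-113435014. All 4 lie on the minus strand and are written 5′ to 3′ in the direction of transcription.
Plin1: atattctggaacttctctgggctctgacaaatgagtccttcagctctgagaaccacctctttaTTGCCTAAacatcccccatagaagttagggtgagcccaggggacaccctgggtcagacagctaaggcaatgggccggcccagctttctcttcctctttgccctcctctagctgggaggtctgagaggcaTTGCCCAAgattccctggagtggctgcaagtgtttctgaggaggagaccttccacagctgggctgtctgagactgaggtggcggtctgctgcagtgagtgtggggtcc
Cidec, first start: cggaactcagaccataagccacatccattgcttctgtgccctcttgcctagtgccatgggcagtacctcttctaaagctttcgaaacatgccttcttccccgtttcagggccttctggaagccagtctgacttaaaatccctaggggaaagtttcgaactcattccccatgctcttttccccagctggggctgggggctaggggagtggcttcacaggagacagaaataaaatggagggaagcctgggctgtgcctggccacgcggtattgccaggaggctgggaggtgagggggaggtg
Cidec, second start: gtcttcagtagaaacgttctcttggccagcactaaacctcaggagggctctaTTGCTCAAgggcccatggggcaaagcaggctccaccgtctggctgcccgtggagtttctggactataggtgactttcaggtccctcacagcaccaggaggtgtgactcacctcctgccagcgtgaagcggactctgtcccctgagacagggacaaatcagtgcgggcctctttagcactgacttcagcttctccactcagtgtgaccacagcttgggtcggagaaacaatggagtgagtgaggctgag
Plin2: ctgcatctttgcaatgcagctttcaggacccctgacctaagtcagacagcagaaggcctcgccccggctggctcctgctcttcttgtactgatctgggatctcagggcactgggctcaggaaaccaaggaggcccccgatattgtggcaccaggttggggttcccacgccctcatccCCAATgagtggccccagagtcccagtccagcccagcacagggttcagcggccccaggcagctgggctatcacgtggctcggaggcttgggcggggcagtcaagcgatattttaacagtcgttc
The Plin1 window held TTGCNNAA at -187 and -58 from the start site, and the window of the second Cidec start held it at -198, whereas the first Cidec window held neither set of letters. The Plin2 window held CCAAT at -73. Over the 8 members with an entry (11 start sites), TTGCNNAA occurred in 2 windows and CCAAT in 4, against 10.8% and 37.4% of the 32841 windows of all genes. The letters TATAAA occurred in 0 of the 11 windows and 13.6% of all windows. These are matches of letters, and binding was not measured.

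Libraries held 8991222 to 22760563 counts assigned to genes (median 16983304). Levels below are CPM (counts scaled to library size), with scaling factors shared by the 40 libraries, and differences are log2 fold changes from edgeR. Cell identity was checked with marker genes that exclude the 10 members. The summed level of 9 adipocyte markers (Adipoq, Cfd, Retn and others) was 5417 to 21181 CPM in adult adipocyte libraries, 11.9 to 54.8 in fibroblasts, 2.49 to 5.02 in luminal cells and 1.57 to 5.41 in basal cells. The adipocyte libraries of diestrus replicate 2 and puberty replicate 2 stood apart from the other 8. Their adipocyte marker sums were 5417 and 5852 CPM against 9675 to 21181, and their basal marker sums were 4414 and 2604 against 137 to 664. Epidermal markers summed to 2162 and 1077 CPM in these 2 libraries against 17.3 to 271. The main results in adipocytes that rest on them are also given without them, and other adipocyte values include them. Fewer cells of a type in a library and less RNA per cell cannot be told apart in these bulk samples.

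In adult mice all 10 genes were higher in adipocytes than in the mean of the other 3 cell types, with log2 differences from 1.15 (Plin2) to 12.73 (Cidec) and a median of 8.55. The median over all 15077 genes tested was 0.10, and 43.9% of them were called higher in this comparison. The level of every adipocyte library lay above that of every other adult library for 9 of the 10 genes, the exception being Plin2, against 9.6% of all genes. The 10 genes together took 0.686% to 2.17% of the counts in adult adipocyte libraries, 0.0689% to 0.170% in fibroblasts, 0.0745% to 0.174% in luminal cells and 0.0254% to 0.0361% in basal cells.

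**Figure D1:**
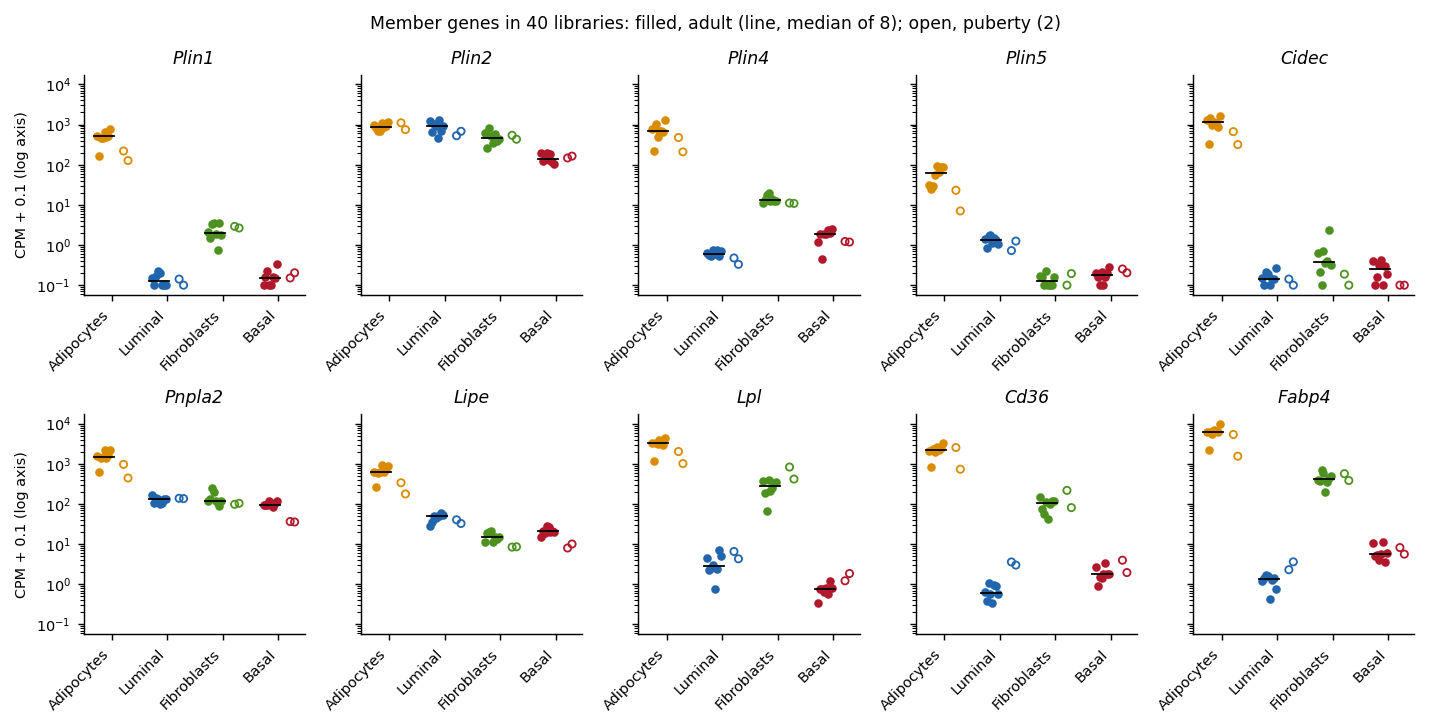
CPM of each member gene in all 40 libraries on a log axis after adding 0.1, with filled points for the 8 adult libraries, a line at their median and open points for the 2 pubertal libraries of each cell type. Plin1, Plin5 and Cidec sit at or near the bottom of the axis outside adipocytes (Plin5 in luminal cells and Plin1 in fibroblasts a little above it), whereas Plin2, Pnpla2 and Lipe are well above it in all 4 cell types.

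Plin1 (ENSMUSG00000030546, chr7:79720218-79732903, minus strand of GRCm38) encodes the main droplet coat protein of fat cells. Its level in the 8 adult adipocyte libraries ran from 168 to 771 CPM with a median of 504. Fibroblasts had 0.658 to 3.42 CPM, whereas luminal cells had 0 to 3 counts and basal cells 0 to 5 counts per library. The groups were far apart, and the log2 difference was 11.59 (SE 0.23, adjusted p = 6.86e-19, edgeR). In fibroblasts Plin1 was still higher than in basal cells, by 5.04 (SE 0.54, adjusted p = 6.02e-08, edgeR).

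Cidec (ENSMUSG00000030278, chr6:113424634-113435760, minus strand) followed the same order more sharply. Adult adipocytes had 334 to 1609 CPM with a median of 1125. The luminal libraries held 0 to 4 counts and the basal libraries 0 to 6. In fibroblasts the range was 0 to 2.29 CPM, and the highest value was a single library, proestrus replicate 1, with 39 counts and the next library at 0.622 CPM. The difference between adipocytes and the rest was 12.73 (SE 0.32, adjusted p = 3.34e-18, edgeR), a value that depends on the small count edgeR adds to libraries at 0. The call of Cidec as higher in fibroblasts than in luminal cells (adjusted p = 0.00603, edgeR) rests on few counts. Cidec entered this fit through its adipocyte levels, since outside adipocytes only fibroblast proestrus replicate 1 exceeded 1 CPM. The call was lost without fibroblast diestrus replicate 1 (log2 difference 2.69). It was also lost without fibroblast estrus replicate 2, where the fit gave no usable estimate (1.53, SE 116.8).

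Plin4 (ENSMUSG00000002831, chr17:56100591-56109803, minus strand) encodes a perilipin of small, newly filled droplets. It ranged from 214 to 1332 CPM in adult adipocytes (median 689) and was the coat gene other than Plin2 with the clearest level in fibroblasts, at 10.95 to 19.9 CPM (median 12.8). Basal cells had 0.358 to 2.38 CPM and luminal cells 0.431 to 0.650. The log2 difference was 5.68 (SE 0.28, adjusted p = 3.35e-13, edgeR) between adipocytes and fibroblasts and -1.59 (SE 0.36, adjusted p = 0.000452, edgeR) between luminal and basal cells. Of its exons 17 bases overlap Hdgfl2 on the other strand.

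Plin5 (ENSMUSG00000011305, chr17:56111601-56117596, minus strand), the perilipin known from tissues that burn fatty acids, was the lowest member in adipocytes, with 25.01 to 95.4 CPM and a median of 60.6. Outside adipocytes luminal cells held the most of it, with 0.735 to 1.64 CPM in each of the 8 libraries. Fibroblasts had 0 to 0.124 CPM and basal cells 0 to 0.187, so that the luminal range lay above both. Luminal cells exceeded basal cells by 3.99 (SE 0.34, adjusted p = 2.61e-09, edgeR), and fibroblasts minus luminal cells gave -5.07 (SE 0.44, adjusted p = 2.33e-09, edgeR).

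Plin2 (ENSMUSG00000028494, chr4:86648386-86670060, minus strand), a perilipin found on droplets of most cell types and on milk fat globules, had another pattern. Adult adipocytes had 674 to 1143 CPM (median 885) and luminal cells 459 to 1286 (median 924), so the groups overlapped throughout. The difference was -0.01 on the log2 scale (SE 0.21, adjusted p = 0.961, edgeR), and its sign turned with other scalings (0.075 with RLE size factors). Fibroblasts had 267 to 817 CPM (median 466) and basal cells 107 to 192 (median 137). Luminal cells exceeded basal cells by 2.61 (SE 0.22, adjusted p = 1.4e-09, edgeR), and fibroblasts lay between, 0.89 below luminal cells (fibroblast minus luminal -0.89, SE 0.21, adjusted p = 0.000726, edgeR) and 1.72 above basal cells (SE 0.22, adjusted p = 4.19e-07, edgeR).

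Both lipase genes were present in all 4 cell types. Pnpla2 (ENSMUSG00000025509, chr7:141455198-141460743, plus strand) ranged from 616 to 2239 CPM in adult adipocytes with a median of 1520.3. The other types lay close together, with 90.1 to 249 CPM in fibroblasts (median 119.6), 99.4 to 168 in luminal cells (median 130.4) and 83.6 to 119.8 in basal cells (median 94.5). Adipocytes exceeded fibroblasts by 3.49 (SE 0.17, adjusted p = 1.83e-13, edgeR). Fibroblasts and luminal cells differed by 0.10 (SE 0.15, adjusted p = 0.57, edgeR), which did not pass the test, and both exceeded basal cells by a small margin, 0.45 (adjusted p = 0.0104, edgeR) and 0.36 (adjusted p = 0.0396, edgeR).

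Lipe (ENSMUSG00000003123, chr7:25379527-25398710, minus strand) ranged from 265 to 921 CPM in adult adipocytes (median 641). Luminal cells came next, with 27.6 to 59.1 CPM (median 49.9), above basal cells with 15.2 to 28.03 (median 20.6) and fibroblasts with 11.1 to 20.8 (median 14.7). Luminal cells exceeded basal cells by 1.10 (SE 0.16, adjusted p = 2.53e-06, edgeR), and their lowest library lay just inside the basal range. Fibroblasts minus basal cells gave -0.46 (SE 0.16, adjusted p = 0.0132, edgeR), a call that was lost with RLE size factors (adjusted p = 0.061). Lipe shares 918 exonic bases with the antisense gene 4732471J01Rik, and the strand setting of the counting is not given in the sources used here.

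The 3 uptake genes were high in adipocytes, clearly present in fibroblasts and near the bottom of the scale in the epithelium. Lpl (ENSMUSG00000015568, chr8:68880491-68907448, plus strand) ranged from 1183 to 4353 CPM in adult adipocytes (median 3303) and from 68.4 to 407 in fibroblasts (median 289). Luminal cells had 0.683 to 7.23 CPM and basal cells 0.245 to 1.11. Adipocytes exceeded fibroblasts by 3.54 (SE 0.32, adjusted p = 2.57e-09, edgeR). Between the epithelial types Lpl was higher in luminal cells, by 2.28 (SE 0.41, adjusted p = 4.16e-05, edgeR), although their ranges overlapped.

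Cd36 (ENSMUSG00000002944, chr5:17781690-17888801, minus strand) had 814 to 3244 CPM in adult adipocytes (median 2243) and 41.9 to 153.0 in fibroblasts (median 107). Fabp4 (ENSMUSG00000062515, chr3:10204088-10208576, minus strand) had the highest level of all members, 2177 to 9903 CPM in adipocytes (median 6344) and 199 to 719 in fibroblasts (median 419). For both genes the epithelial order was the reverse of that of Lpl, with basal above luminal. Cd36 had 0.787 to 3.26 CPM in basal and 0.244 to 0.970 in luminal cells, a luminal minus basal difference of -1.64 (SE 0.36, adjusted p = 0.000395, edgeR). Fabp4 had 3.57 to 11.1 CPM in basal and 0.341 to 1.62 in luminal cells, a difference of -2.45 (SE 0.28, adjusted p = 8.18e-08, edgeR). Adipocytes exceeded fibroblasts by 4.49 for Cd36 (SE 0.29, adjusted p = 1.4e-11, edgeR) and 3.85 for Fabp4 (SE 0.25, adjusted p = 1.9e-11, edgeR).

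In pairs of cell types, 10 genes were higher in adult adipocytes than in fibroblasts (39.2% of all genes were called higher), 9 than in luminal cells (42.6%) and 10 than in basal cells (44.6%). Fibroblasts exceeded luminal cells for 6 genes (40.2% of all genes) and lay below them for 3 (40.9%), namely Plin2, Plin5 and Lipe. Among the 6 was Cidec, whose call rests on few counts as given above. Against basal cells fibroblasts were higher for 7 genes (37.5%) and lower for Lipe alone (39.5%). Luminal cells exceeded basal cells for 5 genes (35.3%), namely Plin2, Plin5, Lipe, Lpl and Pnpla2, and lay below them for 3 (38.3%), namely Plin4, Cd36 and Fabp4. Without adipocyte diestrus replicate 2 these 7 comparisons gave 65 calls of members in place of 64.

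Between genes, levels were compared per kilobase of the principal transcript (RPKM, mean of 8 adult libraries). In adipocytes Fabp4 came first at 7016 RPKM, followed by Pnpla2 at 870, Lpl at 771, Cd36 at 653 and Cidec at 643, whereas Plin5 was last at 29.97. With the length of all exons of a gene in place of the principal transcript, Fabp4 stayed first at 1400 RPKM but Cd36 (618) and Cidec (596) then came before Pnpla2 (519) and Lpl (303). In luminal cells Plin2 led at 475 RPKM, ahead of Pnpla2 at 71.1 and Lipe at 12.9. In basal cells Plin2 (78.7) and Pnpla2 (55.4) also led, and in fibroblasts Fabp4 (495) and Plin2 (261) did.

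Levels outside adipocytes were set against the adipocyte mean, beside the same ratio for the 9 adipocyte markers. In fibroblasts the marker sum stood at 0.133% of its adipocyte mean, and 4 of the 9 markers exceeded 1 CPM. Plin5 (0.0658%) and Cidec (0.0489%) stood below it and Plin1 (0.431%) somewhat above it. Fibroblast levels of Lpl (8.51%), Fabp4 (7.05%), Cd36 (4.42%) and Plin4 (1.92%) stood further above it. Endothelial cells, which also make CD36 and FABP4, were gated out by CD31. Nevertheless all 10 endothelial markers exceeded 1 CPM in fibroblast libraries, with a summed level of 1086 to 2877 CPM against 17.8 to 52.6 in luminal and 10.8 to 36.8 in basal cells. Adult adipocyte libraries, which were not sorted, had an endothelial sum of 582 to 1876 CPM and a macrophage and leukocyte sum of 387 to 946. The part of these cells in the fibroblast and adipocyte levels of the uptake genes was not tested.

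In luminal cells the adipocyte marker sum was 0.0232% of the adipocyte mean and in basal cells 0.0208%. Plin2 (100% and 16.6%), Pnpla2 (8.17% and 6.36%) and Lipe (6.98% and 3.21%) stood far above this in luminal and basal cells, and so did Plin5 in luminal cells (2.09%). Luminal Fabp4 (0.0184%), Cd36 (0.0261%), Plin1 (0.00857%) and Cidec (0.00567%) were near or below it. Luminal Lpl was at 0.107% and luminal Plin4 at 0.0727%. In basal cells Plin4 was at 0.227%, Plin5 at 0.129% (on 0 to 4 counts per library), Fabp4 at 0.101% and Cd36 at 0.0817%. Basal Lpl (0.0201%), Cidec (0.0134%) and Plin1 (0.0128%) were near or below the marker sum.

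**Figure D2:**
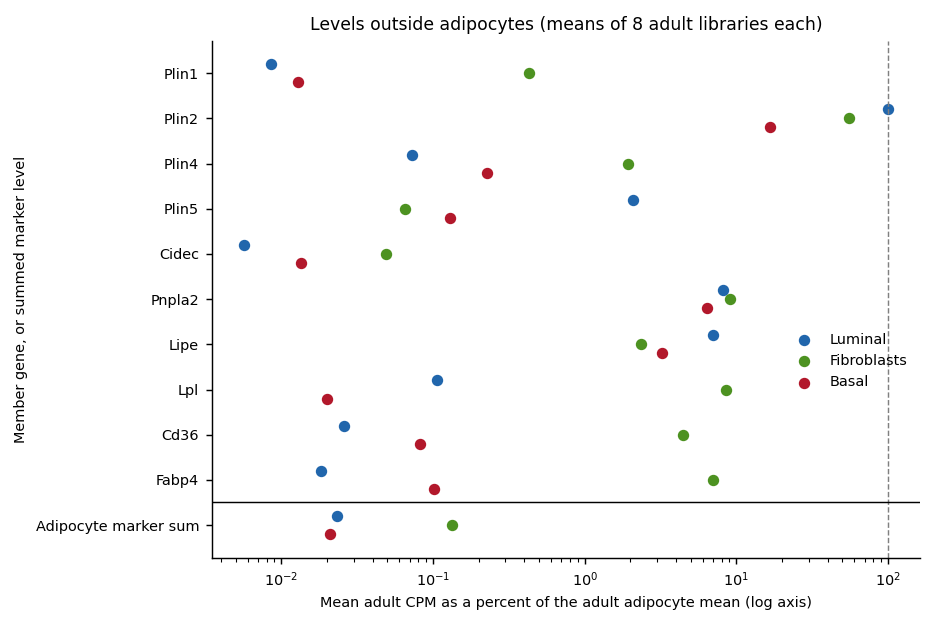
Mean adult CPM of each member gene in luminal cells, fibroblasts and basal cells as a percent of the adult adipocyte mean on a log axis, with the summed adipocyte markers in the bottom row and a dashed line at 100%. Plin2 in luminal cells reaches the dashed line, Pnpla2 and Lipe lie between 2.34% and 9.10% in all 3 types, and Lpl, Cd36 and Fabp4 stand above the marker sum mainly in fibroblasts.

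In puberty all 10 genes were higher in the 2 adipocyte libraries than in the mean of the other types (24.1% of the 14263 genes tested were called higher), and both adipocyte libraries lay above all other pubertal libraries for all 10, against 10.3% of all genes. Against fibroblasts 8 genes were higher (17%). The other 2 were Plin2, with 1103 and 748 CPM in adipocytes against 540.2 and 431 (log2 difference 0.90, adjusted p = 0.0674, edgeR), and Lpl, with 2025 and 1016 CPM against 832 and 418 (1.26, adjusted p = 0.0784, edgeR). Plin2 was also the member that did not pass against luminal cells, where it had 527 and 678 CPM (0.66, adjusted p = 0.135, edgeR), while the other 9 were higher in adipocytes (25.1%). All 10 exceeded basal cells (26%). For Cidec the pubertal basal libraries held 0 counts, which places them at least 3170-fold lower than the adipocyte mean of 492 CPM when each is set to 3 counts.

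Among the other pubertal types, fibroblasts exceeded luminal cells for 5 genes (27.1%) and lay below them for Lipe and Plin5 (25%). They exceeded basal cells for 7 (20.6%). Luminal cells exceeded basal cells for Plin2, Plin5, Lipe, Lpl and Pnpla2 (5 genes; 18.3%) and lay below them for Plin4 (18.9%). Plin5 entered this pubertal fit through its adipocyte levels. It had 15 counts in each luminal library, 2 to 3 in basal and 0 to 1 in fibroblast libraries. The Plin5 calls between these types therefore rest on few counts. Pubertal Lipe levels were 40.4 and 32.6 CPM in luminal cells, 8.34 and 8.50 in fibroblasts and 7.92 and 9.98 in basal cells, which gave a luminal minus basal difference of 2.03 (SE 0.35, adjusted p = 0.00241, edgeR). Without adipocyte puberty replicate 2 the pubertal comparisons gave 56 calls of members in place of 57.

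In both adipocyte libraries that stand apart 9 of the members were low and Plin2 was not. In diestrus replicate 2 the 9 genes other than Plin2 stood at -1.75 to -1.28 relative to the adult median on the log2 scale, whereas Plin2 stood at -0.10. In puberty replicate 2 the same 9 genes stood at -3.12 to -1.61 and Plin2 at -0.24. Puberty replicate 1 was lower than the adult median by less for most members, with a range from -1.40 (Plin5) to 0.32 (Plin2), and its Plin5 level lay below that of diestrus replicate 2. Relative to the adipocyte marker sum, which does not include it, Plin2 stood at 15.2% in diestrus replicate 2, 12.8% in puberty replicate 2 and 11.4% in puberty replicate 1, against 3.37% to 7.27% in the other 7. The 2 libraries of replicate 2 are those with low adipocyte markers and high basal and epidermal markers described above, and the part of other cells in these values was not tested.

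**Figure D3:**
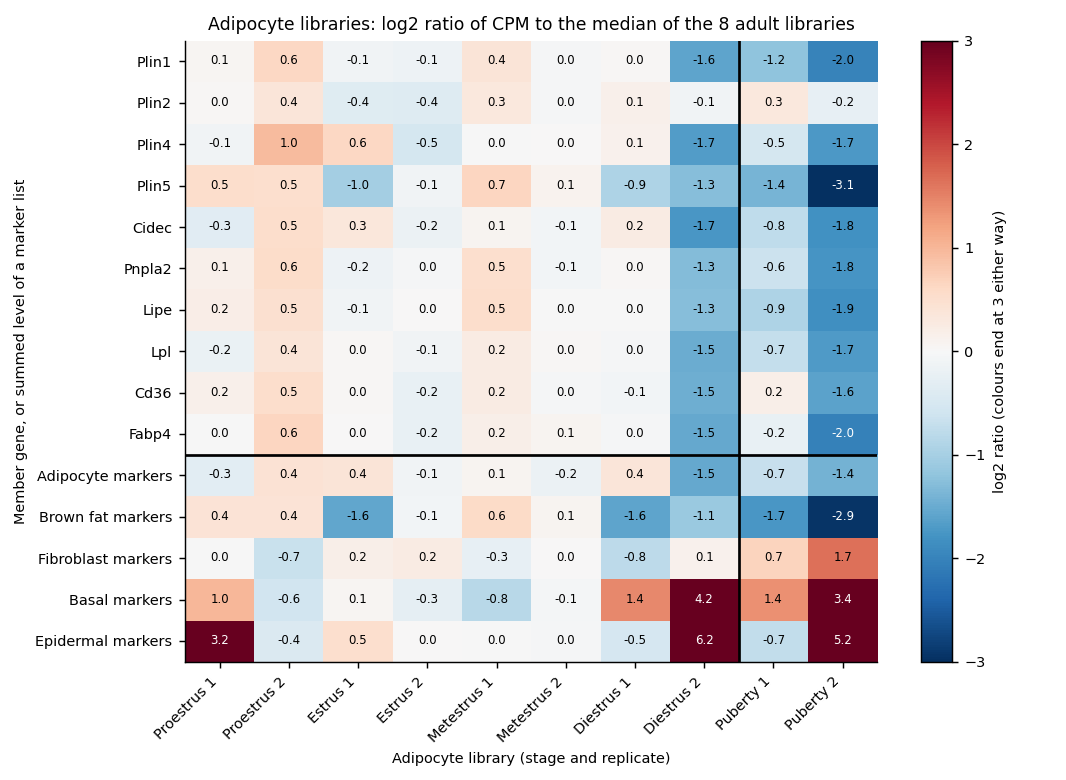
Log2 ratio of each member's CPM to the median of the 8 adult adipocyte libraries, in each of the 10 adipocyte libraries (columns), with summed marker levels in the lower rows and colours that end at 3 in either direction. Diestrus 2 and puberty 2 are low in every member except Plin2 and high in basal and epidermal markers, and Plin5 also varies with the brown fat markers among the other libraries.

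Across the 4 estrous stages Plin5 was the only member called in adipocytes. It had 87.1 and 85.6 CPM in proestrus, 29.99 and 56.5 in estrus, 95.4 and 64.7 in metestrus and 32.0 and 25.01 in diestrus. Both diestrus libraries were thus low, together with estrus replicate 1, which lay between them. Against the mean of the other 3 stages Plin5 was lower in diestrus (log2 difference -1.25, SE 0.30, adjusted p = 0.0488, edgeR), where 3.52% of the 13726 genes tested were called lower. The call was lost when any of the 8 adult adipocyte libraries was left out (adjusted p from 0.0556 to 0.13). Without diestrus replicate 2, the library that stands apart, the difference was -1.05 (adjusted p = 0.13, edgeR). Luminal markers also moved with this stage, with a summed level of 1652 and 1012 CPM in the 2 diestrus adipocyte libraries against 147 to 430 in the other 6 adult ones, and the part of luminal cells in the diestrus values was not tested.

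Plin5 levels went with those of 8 brown fat markers (Ucp1, Cox8b and others), thermogenic genes that can come from brown-like cells in the fat pad. Their summed level was 2765 and 2760 CPM in proestrus, 702 and 1962 in estrus, 3098 and 2199 in metestrus and 697 and 966 in diestrus, with 623 and 271 in puberty. The 3 lowest adult sums were therefore in the 3 libraries where Plin5 was lowest, and the part of brown-like cells in the Plin5 values was not tested. All 8 markers exceeded 1 CPM in adipocytes, whereas in luminal cells their sum was 2.16 to 4.29 CPM.

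None of the other 9 members passed in any of the 10 stage comparisons in adipocytes. In diestrus against the rest their differences were -0.75 for Cd36 and Fabp4, -0.74 for Plin4, -0.72 for Plin1, -0.71 for Lipe, -0.67 for Lpl, -0.66 for Pnpla2, -0.53 for Cidec and 0.02 for Plin2. The negative values rest on the library that stands apart. With it as the only diestrus library they ran from -1.81 (Plin4) to -1.37 (Lipe). Without it Cidec, for example, was at 0.17, and the values of the others without it are not given here. Plin2 had its 2 lowest adipocyte values in estrus, 684 and 674 CPM, against 826 to 1143 in the other stages (-0.43, unadjusted p = 0.0424, adjusted p = 0.29, edgeR).

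**Figure D4:**
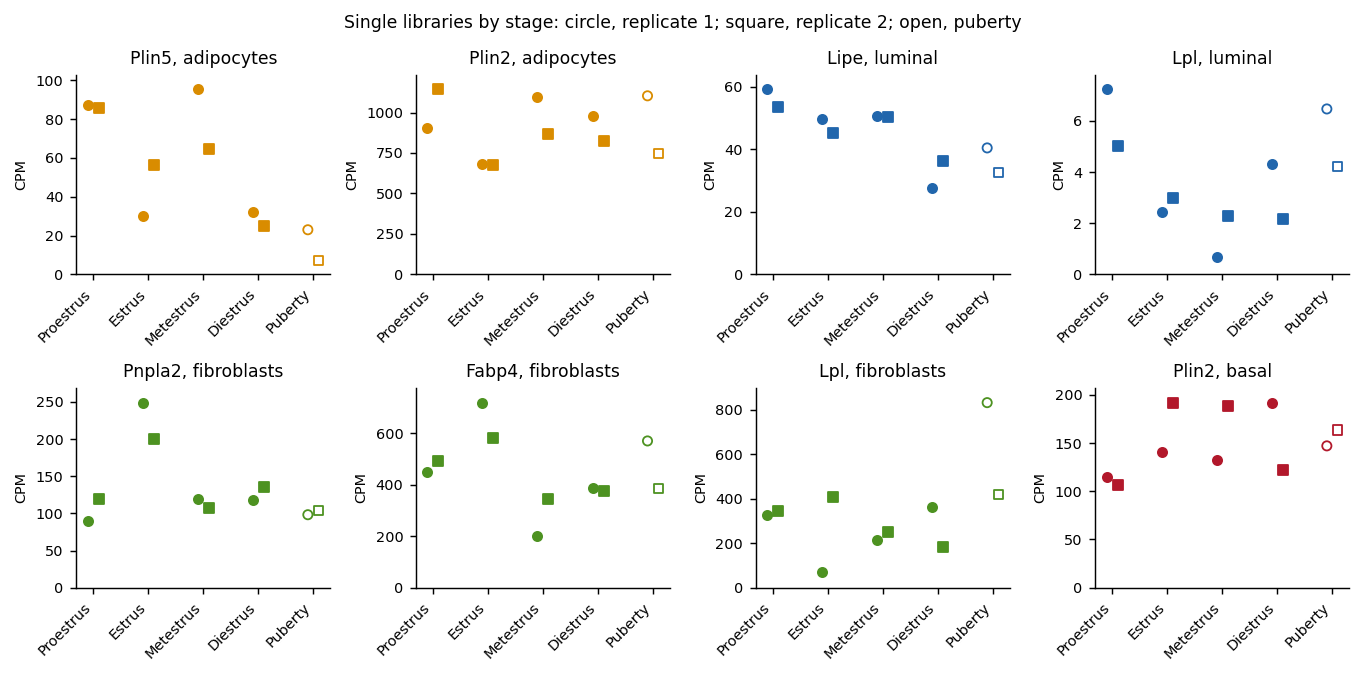
CPM in single libraries by stage for the 8 gene and cell type pairs named in the text, on linear axes that start at 0, with circles for replicate 1, squares for replicate 2 and open symbols for puberty. Replicates of a stage sit close together for luminal Lipe and far apart for fibroblast Lpl in estrus (68.4 and 407 CPM).

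In luminal cells 0 of the 7 members tested passed in the 10 stage comparisons by edgeR, where at most 0.471% of all genes were called. Of these 70 tests 10 had an unadjusted p under 0.05. The 10 comparisons reuse the same 8 libraries, so the tests in such counts, here and in the paragraphs below, are not independent. The share of all genes with such a p is not given here, so no excess can be read from these counts. Lipe had 59.1 and 53.6 CPM in proestrus, 49.7 and 45.3 in estrus, 50.6 and 50.2 in metestrus and 27.6 and 36.1 in diestrus. Both diestrus libraries were below all 6 others, and diestrus against the rest gave -0.68 (SE 0.13, unadjusted p = 0.000534, adjusted p = 0.363, edgeR), a comparison in which 0% of all genes were called by edgeR. DESeq2 gave Lipe an adjusted p of 0.00447. Lpl had 7.23 and 5.01 CPM in proestrus against 0.683 to 4.31 in the other stages (1.36, SE 0.37, adjusted p = 0.177, edgeR; DESeq2 adjusted p = 0.0371).

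In fibroblasts 0 of the 8 members tested passed by edgeR in the 10 comparisons, in which 0% of the 13068 genes were called, and 14 of 80 tests had an unadjusted p under 0.05. This count has the limits given for luminal cells. Pnpla2 had 249 and 199.8 CPM in estrus and 90.1 to 136 in the other stages, without overlap. Estrus against the rest gave 0.87 (SE 0.17, unadjusted p = 0.000704, adjusted p = 0.0796, edgeR), with adjusted p = 0.000429 by DESeq2 and 0.0119 in a joint fit of the 32 adult libraries. The share of all genes called by these other fits is not given here. The difference was 0.69 without estrus replicate 1, the library with the fewest counts (8991222), and 1.04 without estrus replicate 2. Fabp4 was likewise highest in estrus, with 719 and 583 CPM against 199 to 491 (0.74, SE 0.21, adjusted p = 0.1, edgeR; DESeq2 adjusted p = 0.0128). Its lowest values were in metestrus, 199 and 344 CPM (-0.81, SE 0.23, adjusted p = 0.196, edgeR; DESeq2 adjusted p = 0.0214). The endothelial markers of the fibroblast libraries were ordered alike, with sums of 2845 and 2877 CPM in estrus against 1086 to 2688 in the other stages, and with their lowest values, 1086 and 1268, in metestrus. The part of endothelial cells in these stage values was not tested. Lpl varied more within estrus than between stages, with 68.4 and 407 CPM in the 2 estrus libraries.

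In basal cells 0 of the 6 members tested passed by edgeR, where at most 1.21% of all genes were called in a comparison, and 3 of 60 tests had an unadjusted p under 0.05. All 3 were of Plin2, which had 115 and 107 CPM in proestrus against 122 to 192 in the other stages (-0.60, SE 0.21, unadjusted p = 0.0167, adjusted p = 0.564, edgeR). In a single test of whether stage differences depended on cell type, 0 of the 10 members passed, against 3.96% of all genes by edgeR, and Plin5 and Pnpla2 had the smallest adjusted p, 0.168 for both (unadjusted p = 0.0382 and 0.0385).

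Between puberty and adult life 6 of 32 tests of members in the 4 cell types were called. Basal cells, in which 49.3% of all genes were called, gave 3 of them. Basal Pnpla2 was 36.5 and 35.6 CPM in puberty against 83.6 to 119.8 in adults, and basal Lipe 7.92 and 9.98 against 15.2 to 28.03, without overlap for either. Pnpla2 was lower in puberty by 1.45 (-1.45, SE 0.13, adjusted p = 1.67e-05, edgeR) and Lipe by 1.23 (-1.23, SE 0.21, adjusted p = 0.000878, edgeR), among 24.5% of genes called lower. Lpl was higher in puberty, with 1.12 and 1.76 CPM against 0.245 to 1.11 (1.24, SE 0.37, adjusted p = 0.0184, edgeR), among 24.8% called higher. This call was lost without pubertal replicate 2 (0.90, adjusted p = 0.224) and by DESeq2 (adjusted p = 0.0527).

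In luminal cells Cd36 was higher in puberty, with 3.51 and 2.91 CPM against 0.244 to 0.970 in adults (2.49, SE 0.39, adjusted p = 0.00428, edgeR; 6.55% of genes were called higher). Fabp4 had 2.21 and 3.53 CPM against 0.341 to 1.62, also without overlap (1.33, SE 0.38, adjusted p = 0.057, edgeR). In fibroblasts Lipe was lower in puberty, with 8.34 and 8.50 CPM against 11.1 to 20.8 (-0.77, SE 0.22, adjusted p = 0.0419, edgeR; 6.4% called lower). That call was lost when any of 8 of the 10 fibroblast libraries was left out (adjusted p from 0.0522 to 0.211), namely all but the diestrus libraries. Fibroblast Lpl was 832 and 418 CPM in puberty against 68.4 to 407 (1.32, SE 0.48, adjusted p = 0.0857, edgeR).

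In adipocytes Plin5 was the member called, with 22.99 and 6.96 CPM in puberty against 25.01 to 95.4 in adults (-1.89, SE 0.48, adjusted p = 0.0467, edgeR; 6.21% called lower). Leaving out single libraries kept this call only without diestrus replicate 2. In the pubertal adipocyte libraries the fibroblast markers summed to 9227 and 18445 CPM against 3409 to 6925 in adults, and the luminal markers to 1512 and 982 against 147 to 1652, and the part of these cells in the pubertal values was not tested. Plin1 (219 and 127 CPM against 168 to 771) gave -1.54 (adjusted p = 0.0595, edgeR) and Lipe (338 and 178 against 265 to 921) gave -1.36 (adjusted p = 0.0599, edgeR). With both adipocyte libraries that stand apart left out, Plin1 (-1.39), Lipe (-1.14) and Plin5 (-1.35) were lower by edgeR in the 1 remaining pubertal library. That library was assumed to vary like the adult ones, and its fibroblast and luminal markers were high as well. Its adipocyte marker sum, 9675 CPM, was the lowest of the 8 libraries that do not stand apart. Relative to that sum Plin1 was at 2.27%, Lipe at 3.49% and Plin5 at 0.238%. The adult ranges of these ratios were 2.33% to 4.23%, 2.93% to 5.89% and 0.148% to 0.699%, in the same order. Plin2 gave 0.03 (SE 0.20, adjusted p = 0.937, edgeR) with all libraries.

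**Figure D5:**
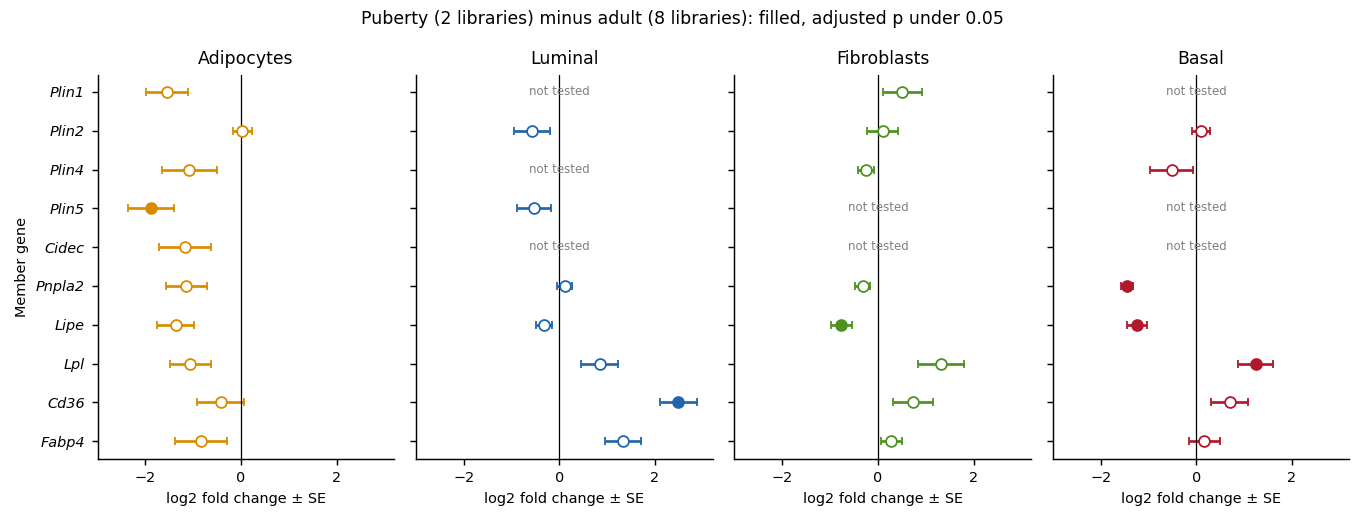
Log2 fold change of puberty (2 libraries) minus adult (8 libraries) for each member in each cell type, with bars of 1 SE and filled points where the adjusted p was under 0.05. Members too low to be tested in a cell type are marked as such. Most members lie left of 0 in adipocytes, whereas Lpl and Cd36 lie right of 0 in the other 3 cell types.

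A test of whether the change from puberty to adult life depended on cell type was chosen after the values were seen. It called 4 of the 10 members by edgeR, a share close to that of all genes (42% of 15356), namely Pnpla2 (adjusted p = 0.00607), Cd36 (0.0221), Lpl (0.0343) and Plin1 (0.0402). Without adipocyte puberty replicate 2, Pnpla2 kept its call (adjusted p = 0.00509) and the other 3 did not (0.0529, 0.219 and 0.162). With diestrus replicate 2 left out as well 4 members were called, Pnpla2 (adjusted p = 0.000233), Lipe (0.026), Cd36 (0.0279) and Plin1 (0.0317).

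The other genes of these pathways were counted in lists drawn up beside the members, and in the same comparison 43.9% of all genes were called higher and 36.6% lower. Of 18 genes of lipolysis and its control 17 were higher in adult adipocytes than in the other types and 0 were lower (median 5.10). Among them were Pde3b, which breaks down the cyclic AMP that starts lipolysis (8.06), Prkar2b, a regulatory subunit of protein kinase A (6.69), Aqp7, the glycerol channel (8.60), and Ces1d, a lipase (11.38). Triglyceride assembly gave 14 higher and 1 lower of 16 (median 2.86), with Gpd1 at 9.17, Pck1 at 13.50, Agpat2 at 4.70 and Gpam at 4.68, and with Lpin2 lower at -1.52. Of 13 other droplet proteins tested, 8 were higher and 2 lower (median 1.48), led by Cidea at 7.94, then Bscl2 (seipin) at 2.84, Ldah at 2.12 and Fitm2 at 1.57. Of 24 tested genes of lipoprotein lipolysis and fatty acid uptake, 14 were higher and 7 lower (median 0.78), with Acsl1 at 6.26, Slc27a2 at 8.31, Fabp3 at 6.65 and Slc27a1 at 4.58. Of 18 regulators 12 were higher and 4 lower (median 1.01), with the nuclear receptors Pparg at 5.54, Nr1h3 at 4.44 and Ppara at 6.34 and the factor Klf15 at 5.98.

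In diestrus adipocytes 3 of these listed genes were called against the other stages, in a comparison that called 7.53% of all genes higher and 3.52% lower. Aqp7 was lower (-1.28, adjusted p = 0.0359, edgeR) and so was Fabp3 (-1.73, adjusted p = 0.0488, edgeR), whereas Lpin2 was higher (0.89, adjusted p = 0.0299, edgeR). Lpin2 was also higher in luminal cells (mean 96.0 CPM in adults) than in adipocytes (25.5), and luminal markers were high in both diestrus libraries, as given above. Without diestrus replicate 2, which leaves 1 diestrus library, Aqp7 was at -0.89 (adjusted p = 0.0356, edgeR), Fabp3 at -2.21 (adjusted p = 0.0508) and Lpin2 at 0.64 (adjusted p = 0.0618), so that Aqp7 alone was called. In basal cells Fabp5, a fatty acid binding protein gene, was higher in estrus (0.88, adjusted p = 0.035, edgeR). In pubertal against adult adipocytes 3 of 18 lipolysis genes, 4 of 16 assembly genes and 3 of 18 regulators were lower, where 6.21% of all genes were called lower, with Agpat2 at -2.05 (adjusted p = 0.0355, edgeR), Gpd1 at -1.94 (adjusted p = 0.0428, edgeR), Nr1h3 at -1.01 (adjusted p = 0.0333, edgeR) and Klf15 at -1.13 (adjusted p = 0.034, edgeR). Of the same lists 0, 1 and 0 were higher, and the other droplet proteins gave 1 higher and 0 lower of 13. The count of the uptake list in this comparison is not given here. With both libraries that stand apart left out, 1 pubertal library remains, in which Agpat2 was at -2.06 and Nr1h3 at -1.02 by edgeR. The calls of Gpd1 and Klf15 were lost in that fit. Counts of the lists are not given for it, so no excess of lower genes can be read from it. The fibroblast and luminal markers that were high in pubertal adipocyte libraries are given above.

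Over the 32 adult libraries, the gene whose log2 CPM was most like that of a member was Adipoq for Cidec (Pearson r = 0.999), Nat8l for Plin1 (0.996), Pde3b for Plin4 (0.993) and Coq9 for Plin5 (0.991), and Lipe had Adig (0.989). Pnpla2 was most like Pxmp2 (0.986), Lpl like Amy1 (0.987) with Pparg next (0.981) and Cd36 like Hoxc8 (0.991), while Cd36 and Fabp4 were like each other (0.990). Plin2 had the least close neighbour, Chn1 at 0.938. These libraries share 4 cell types and 8 pools of mice, so the values mostly describe differences between cell types.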

How the data were processed

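According to the study's methods, polyA-selected stranded libraries were sequenced as single-end reads, aligned to GRCm38 with Tophat 2.1 and Bowtie 1.1.0 and then assigned to genes by HTSeq-count. The authors deposited these raw counts as 1 adult and 1 pubertal table, and also deposited normalized tables in which each value is log2(count scaled to 1e+07 per library + 1), which were checked against the counts and not used further. The counts were used as deposited. Symbols and coordinates came from the GENCODE annotation of GRCm38.

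The 10 members and the pathway and marker lists were chosen with earlier results of these data known. Main tests used edgeR 4.0.16 in R 4.3.3 (TMM factors, quasi-likelihood F-test, genes with CPM above 1 in at least 2 libraries of a fit), with Benjamini-Hochberg adjustment over all genes tested in a comparison and a threshold of 0.05. The fits were of the 32 adult libraries, the 8 pubertal libraries, the 8 adult libraries of each cell type, and the 10 libraries of each cell type for puberty against adult. CPM values use TMM factors shared by the 40 libraries. Statistical scripts were tested on simulated counts. Alternatives were RLE size factors, no filter, DESeq2 1.42.0, edgeR's newer quasi-likelihood method, a joint adult fit, a replicate block and the omission of each library. The dependence of puberty effects on cell type and the omission of both adipocyte libraries that stand apart (for the pathway lists in diestrus, of the diestrus one) were added after the data were seen. Marker lists were summed in CPM. Named genes were all members, of each pathway list the 4 genes with the smallest adjusted p for adult adipocytes against the other types and those called between stages, and the genes most correlated with each member. Some genes that this rule names are not reported here.

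The 4 cell types of an adult replicate came from the same pool of mice, so the numbers pair adult cell types. Deviations of same-numbered cell types from their group means correlated with r from -0.0825 to 0.297 (24 pairs). RefSeq windows were found for 8 of the 10 members, not for Lpl and Fabp4. Counting error limits members with few counts per library, and other errors are covered only by the spread between pools.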

Additional observations from a re-analysis of the deposited data

Results flagged for a closer look

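Of the 40 groups of 8 adult libraries of a member in a cell type, 2 held a value whose gap to its nearest neighbour was large for the group's range, where chance gives about 1 in 20. Cidec in fibroblasts was at 2.29 CPM in proestrus replicate 1, with the next library at 0.622. Lpl in adipocytes was at 1183 CPM in diestrus replicate 2, with the next library at 2896, and that library also held the lowest adipocyte marker sum.

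Puberty minus adult differences were called as dependent on cell type by edgeR's interaction test for 4 of the 10 members, namely Cd36 (adjusted p = 0.0221), Pnpla2 (adjusted p = 0.00607), Plin1 (adjusted p = 0.0402) and Lpl (adjusted p = 0.0343). This share is close to that of all genes (42%), so the count does not set the members apart. Without adipocyte puberty replicate 2 only Pnpla2 kept its call, as given above. Pnpla2 differed by -1.14 in adipocytes, -1.45 in basal cells, 0.11 in luminal cells and -0.32 in fibroblasts. Cd36 differed by 2.49 in luminal cells, 0.70 in basal cells, 0.73 in fibroblasts and -0.42 in adipocytes. Lpl differed by 1.32 in fibroblasts, 1.24 in basal cells, 0.84 in luminal cells and -1.06 in adipocytes, and Plin1 by 0.51 in fibroblasts and -1.54 in adipocytes.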

How the results depend on the processing

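Calls of members between cell types moved little, from 63 to 65 in adults (64 in the main test) and from 52 to 59 in puberty (57), over all alternatives and omissions. For the stages, DESeq2 gave 4 calls in luminal cells, 3 in adipocytes and 7 in fibroblasts, the fit without a filter gave 10 in luminal cells, 2 in basal cells and 6 in fibroblasts, and the joint adult fit gave 3 in adipocytes and 3 in fibroblasts, where the main counts were 0, 1 in adipocytes, and 0. The stage by cell type interaction gave 1 call with DESeq2 and 2 without a filter. Puberty against adult gave 10 calls with DESeq2 (6 in the main test) and its interaction with cell type 7 (4). The causes of these differences were not tested. The share of all genes called is not given for these settings or for the omissions below. The counts therefore cannot show whether members moved more than other genes. Leaving out single libraries gave 63 to 65 calls between adult cell types and 52 to 56 between pubertal ones. For the stages it gave 0 to 27 in adipocytes, 0 to 7 in fibroblasts, 0 to 2 in luminal cells and 0 to 0 in basal cells. The 27 came without diestrus replicate 1, which leaves the library that stands apart as the only diestrus sample, the 7 came without fibroblast estrus replicate 2 and the 2 without luminal diestrus replicate 2. The stage by cell type interaction gave 0 to 1 (without adipocyte diestrus replicate 1), puberty against adult 5 to 9 (9 without adipocyte diestrus replicate 2) and its interaction 1 (without adipocyte puberty replicate 2) to 6. With both adipocyte libraries that stand apart left out the interaction gave 4 and puberty against adult 8.

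With the pools of mice as a block, the adult comparisons gave 65 calls, since Cidec then passed between fibroblasts and basal cells. Within a cell type the stages share only a replicate number (r from -0.675 to 0.433), and that block gave 0 calls in adipocytes, with Plin5 in diestrus at -1.25 (adjusted p = 0.105).

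Signs turned for values that had not passed a test. Plin2 in adult adipocytes minus luminal cells was 0.075 with RLE size factors, 0.053 with the replicate block, 0.075 with DESeq2 and -0.063 to 0.30 when single libraries were left out. Cd36 in puberty against adult adipocytes was 0.033 with both adipocyte libraries that stand apart left out. With single libraries left out, Plin2 ran from -0.016 to 0.17 and Cidec from -1.74 to 0.17 in diestrus adipocytes. For puberty against adult, Plin2 ran from -0.28 to 0.29 and Cd36 from -1.58 to 0.22 in adipocytes, Fabp4 from -0.13 to 0.43 in basal cells, and Fabp4 from -0.012 to 0.52, Plin2 from -0.048 to 0.29 and Cd36 from -0.13 to 1.27 in fibroblasts. Members with few counts, such as Plin1 and Cidec in the epithelium, were not tested between stages there.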
